A study of Rattus norvegicus with 2 samples.

Results

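The short intergenic noncoding loci of rat urine RNA are the stretches under 500 bp that carry only identifiers of a noncoding RNA database (NONRATG for a gene, NONRATT for a transcript). A locus was taken when its position was shared with no annotated gene and with no newly assembled locus, and when its listed end minus start was under 500. This left 2282 of the 32435 loci in the table, with 4587 of 113011 entries, after 3 entries that are not reported here were set aside. Measured values had no part in the choice. RNA was sequenced from 1 library labelled WT and 1 labelled UUO. Both came from urine of Sprague Dawley rats aged 8 weeks (postnatal day 56), 2 weeks (14 days) after surgery. In UUO (unilateral ureteral obstruction) the right ureter was ligated, a model in which the kidney scars, and in WT the same operation was done without ligation, so that WT rats were sham-operated and not untouched. All urine was taken by catheter from the ureter. The number of rats behind each library was not stated. With 1 library per group no difference below has a replicate check, no test was possible, and every comparison describes these libraries. The libraries were matched to the table's abbreviated condition names from the series title and the study's lists, and every direction would be opposite if those names were exchanged.

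Short noncoding genes include RNAs of well-known machinery. Small nuclear RNAs (snRNAs) form the core of the spliceosome, small nucleolar RNAs (snoRNAs) guide the processing and modification of ribosomal RNA, and small Cajal body RNAs do the like for snRNAs. MicroRNAs are cut from short hairpin precursors and repress messenger RNAs that pair with their seed. Many other short database entries have no known function.

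Among the members, the microRNA precursors are the loci whose sequence is best known. A member was matched to a RefSeq precursor that carries a microRNA symbol when both lay between the same neighbouring genes, when its span equalled the precursor's length to the base, when no other small RNA there had that length, and when the interval held at most 5 small RNAs, a limit that leaves out the crowded cluster on chromosome 6. This held for 27 members on 15 chromosomes, with spans of 66 to 111 bp. All 27 were listed at 0 in both libraries. A looser rule allowed several candidates of the same length, set no limit on small RNAs in the interval and took any RefSeq gene of microRNA type. It matched 40 members, with 11 on chromosome 6 that could not be told apart. NONRATG013850 among them matched Snora36c, which carries no microRNA symbol. Of the 40, 0 were above 0 in either library. The mature microRNAs below were picked from those that RefSeq lists for these loci, and several share a seed. Sequences are from RefSeq (GRCr8), 5′ to 3′, with the seed (bases 2 to 8) in capitals.
rno-miR-34a-5p: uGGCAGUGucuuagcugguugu
rno-miR-449a-5p: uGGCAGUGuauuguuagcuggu
rno-miR-181b-5p: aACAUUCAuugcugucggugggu
rno-miR-181c-5p: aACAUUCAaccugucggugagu
rno-miR-138-5p: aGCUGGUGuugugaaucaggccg
rno-miR-129-5p: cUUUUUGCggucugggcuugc
rno-miR-141-3p: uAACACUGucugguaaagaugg
rno-miR-200b-5p: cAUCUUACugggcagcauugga
rno-miR-205: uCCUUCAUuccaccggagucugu
rno-miR-30a-5p: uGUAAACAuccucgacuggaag
rno-miR-146a-5p: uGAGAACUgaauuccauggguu
miR-34a and miR-449a shared 1 seed, and miR-181b and miR-181c shared another. miR-138-5p and miR-129-5p each come from a pair of matched loci. In all, 25 of the 27 loci had a mature sequence, 41 mature sequences had 38 different seeds, and 5 seeds were shared by more than 1 locus. As background, miR-34a is induced by p53, miR-141 and miR-200b belong to a family that keeps epithelial cells epithelial, and miR-146a restrains inflammatory signalling. For miR-200b only the arm named 5p was listed, and the family's role is not assigned to the seed of that arm. The precursor of miR-34a lies at chr5:170733241-170733343 (NONRATG023715), that of miR-205 at chr13:116787617-116787725 (NONRATG009587) and that of miR-30a at chr9:28377822-28377893 (NONRATG030152). Coordinates here and below are those listed in the table, whose build is rn5 per the submitters' processing notes. The precursors are shown whole because their length is that of the locus, with mature arms that RefSeq lists in capitals.
Mir34a precursor: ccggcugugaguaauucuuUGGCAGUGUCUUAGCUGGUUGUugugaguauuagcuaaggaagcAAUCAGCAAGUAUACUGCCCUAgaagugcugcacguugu
Mir205 precursor: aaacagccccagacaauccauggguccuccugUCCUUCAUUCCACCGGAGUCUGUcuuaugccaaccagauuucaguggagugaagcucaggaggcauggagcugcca
Mir30a precursor: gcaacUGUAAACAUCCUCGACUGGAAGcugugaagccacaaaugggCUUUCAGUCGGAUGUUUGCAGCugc
The 3 loci span 102, 108 and 71 bp. An FPKM of 0 at these spans does not show absence of the RNA, since each of the 381 members shorter than 138 bp was listed at 0 in both libraries.

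Members were detected in more loci of UUO than of WT urine, and at a lower level. FPKM counts fragments relative to the transcript's length in kilobases and to the size of the library. It was summed over the entries of a locus, and a sum of 1 or more counted as detected. In WT urine 159 members (6.97%) were detected, against 32% of all loci. In UUO urine 564 (24.7%) were detected, against 62.3% of all loci. Both libraries detected 141 members, UUO alone 423 and WT alone 18. Over all loci these counts were 9667, 10552 and 722, of 20941 detected in either library. Each of the 423 was listed at 0 in WT and each of the 18 was listed at 0 in UUO. The other 1700 members were listed at 0 in both. No member value lay between 0 and 1, so any value above 0 counted as detected. Over all loci, with a median span of 3353 bp, 12293 were above 0 in WT and 10389 detected. In UUO urine 27102 of all loci were above 0 and 20219 detected. The limit of 1 thus asked less of members than of all loci. The median FPKM of detected members was 34.8 in WT and 4.01 in UUO urine, against 17.1 and 7.33 over all detected loci.

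Differences between libraries were taken as log2(FPKM + 1) in UUO minus that in WT, a scale that understates the change of low loci, and counted as 2-fold at 1 or more in size. Of 582 members detected in either library, 449 (77.1%) were at least 2-fold higher in UUO urine, where 53.5% of all loci detected in either were. At least 2-fold lower were 88 members (15.1%), against 20.4% of all loci. The other 45 were within 2-fold. The median difference was 1.76, against 1.09 over all loci. A member at 0 in 1 library and detected in the other counted as 2-fold by construction. The lowest values above 0, 1.31 FPKM in WT and 1.27 in UUO, already pass that limit. So 423 of the 449 and 18 of the 88 repeat the detection counts, and the other 26 and 70 were detected in both. The FPKM limit also asks fewer fragments of members than of longer loci, so the shares over all loci have an unlike threshold. All loci include 5683 newly assembled loci without an annotated gene, of which 5476 were detected in UUO and 760 in WT. Of those detected, 87.7% were higher in UUO and 8.13% lower. Of detected loci with an annotated gene, 33.1% were higher and 27.5% lower, with a median of -0.09. The split depended on the scaling and the pseudocount. Equal sums or median ratios moved UUO values by 0.63 or 0.85 on the log2 scale. The equal sums were taken over all entries, those set aside included. Without the loci set aside the sums were 514232 FPKM in WT and 462087 in UUO, and a rescaling to these was not run. A common 75th percentile over entries above 0 in either library moved UUO values by -3.25. With the last, 59 members were higher and 148 lower. With a pseudocount of 10 in place of 1, 70 were higher and 73 lower. Markers of other cells moved with the libraries. Red-cell genes, 4 of 5 found, summed to 1540 FPKM in WT against 64550 in UUO, and 5 of 5 leukocyte genes were detected in UUO against 2 of 5 in WT, where Ptprc, Cd68 and Itgam were listed at 0. Tubule genes (8 of 8 detected in WT, 7 of 8 in UUO) summed to 194 FPKM in WT against 99.6 in UUO, and urothelial genes (5 of 6 and 6 of 6) to 806 against 1112. The part of these markers in the members' difference was not tested.

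**Figure D1:**
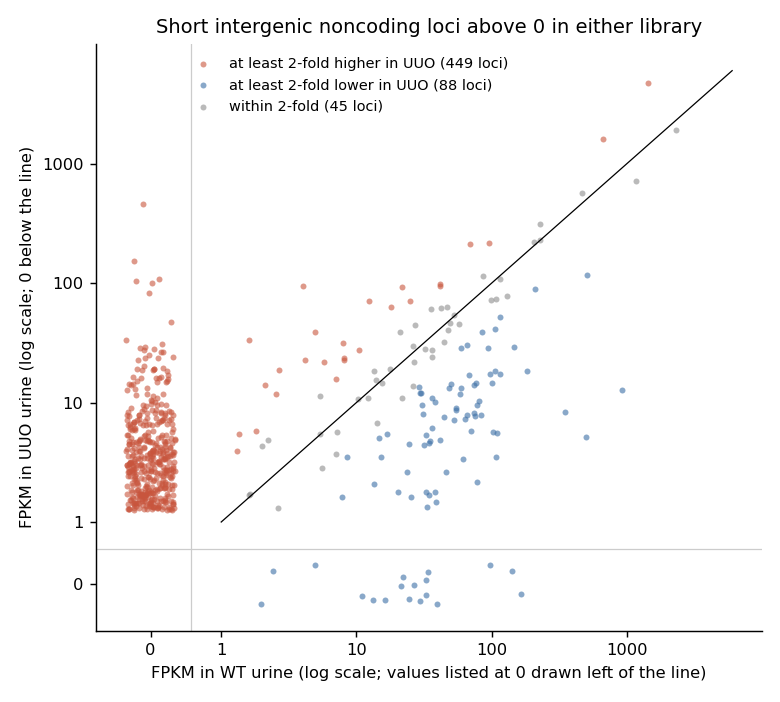
FPKM of each of the 582 detected members in WT (x axis) and UUO urine (y axis), both on log axes, with values listed at 0 drawn beyond the grey lines and spread out for sight. The 423 loci at 0 in WT form the column at the left, most of them below an FPKM of 10, while loci above 0 in both lie on either side of the line of equality.

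Loci above 0 in both libraries showed the other order. Of the 141 members detected in both, 26 (18.4%) were at least 2-fold higher in UUO urine and 70 (49.6%) at least 2-fold lower, with 45 within 2-fold. Of all loci detected in both, 9% were higher and 38.1% lower. The median difference was -0.97 among members and -0.67 over all loci. The lower loci lay mostly where the higher of the values was an FPKM of 30 or more. These classes were set by the values compared, and no share over all loci by class is given. They therefore show no trait particular to the members. Of 66 members whose higher FPKM lay between 30 and 100, 10 were higher and 42 lower in UUO, with a median of -1.81. From 100, 4 of 29 were higher and 15 lower, with a median of -1.15. Between 10 and 30, 9 of 32 were higher and 11 lower, with a median of -0.10. Of 14 members under an FPKM of 10, 3 were higher and 2 lower, with a median of 0.02. In this class both values lay under an FPKM of 10, where log2(FPKM + 1) understates a change. A few fragments make up such a value, so differences there are uncertain.

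The span of a locus went with its detection. The 266 members of 2 bp, the 86 of 3 to 99 bp and the 29 from 100 to under 138 bp were all listed at 0 in both libraries. From 138 to under 200 bp, 3 of 44 members were detected in WT and 7 in UUO. From 200 to under 300 bp the shares were 5.11% in WT and 16.2% in UUO of 333 members. They were 8.67% and 29.0% of 715 members from 300 to under 400 bp, and 9.52% and 36.6% of 809 members from 400 to under 500 bp. The level of detected loci went the other way. The median FPKM in UUO fell from 8.04 in the class from 200 bp to 3.13 in the class from 400 bp, and in WT from 69.0 to 31.8. Values on either side of the limit of 500 bp were as follows. Of 98 members from 490 bp, 5 were detected in WT and 31 in UUO, with median FPKM of 23.5 and 2.57. Of 76 database loci from 500 to 509 bp, 6 and 32 were detected, with medians of 24.6 and 2.49.

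**Figure D2:**
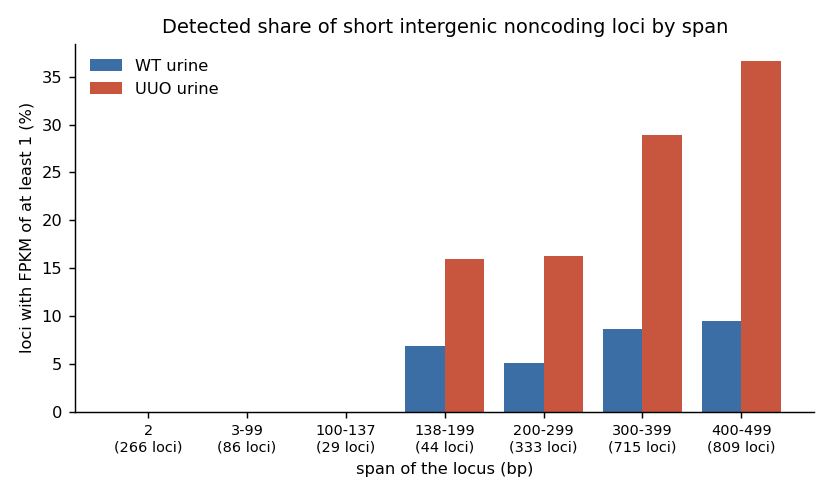
Share of members with FPKM of at least 1 (y axis, %) in each class of span (x axis, bp, with the number of loci), for WT and UUO urine. No bar stands below 138 bp, and in UUO urine the share rises from 16.2% in the class from 200 bp to 36.6% in the class from 400 bp.

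The number of sequenced fragments behind a value was recovered from the steps between low FPKM values, for spans of 200 bp or more. The fit gave a mean fragment length of 128 bp (SD of the length distribution 53.8 bp) in WT and 175 bp (31.4 bp) in UUO, with totals of 2111459 and 2421254 fragments. Among values under 20 fragments, 78 of 81 in WT (96.3%) and 513 of 520 in UUO (98.7%) came within 0.1 of a whole number. The fit itself used values under 20 fragments, so these shares are not an independent check of it. The totals and fragment numbers come from the fit and were not counted from reads. On a locus of 400 bp 1 fragment gave 1.74 FPKM in WT and 1.82 in UUO, and on one of 250 bp it was worth 3.84 and 5.36. The WT value of a member rested on many fragments and the UUO value on few. In WT urine 156 members held 6732 fragments, with a median of 19 (quartiles 7 and 35). In UUO urine 557 members held 5980 fragments, with a median of 2 (quartiles 1 and 4). A single fragment stood behind 12 members in WT (7.69%) and 211 in UUO (37.9%). Of the 444 members of this length that were at least 2-fold higher in UUO, 380 (85.6%) had 1 to 5 fragments there and were listed at 0 in WT.

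**Figure D3:**
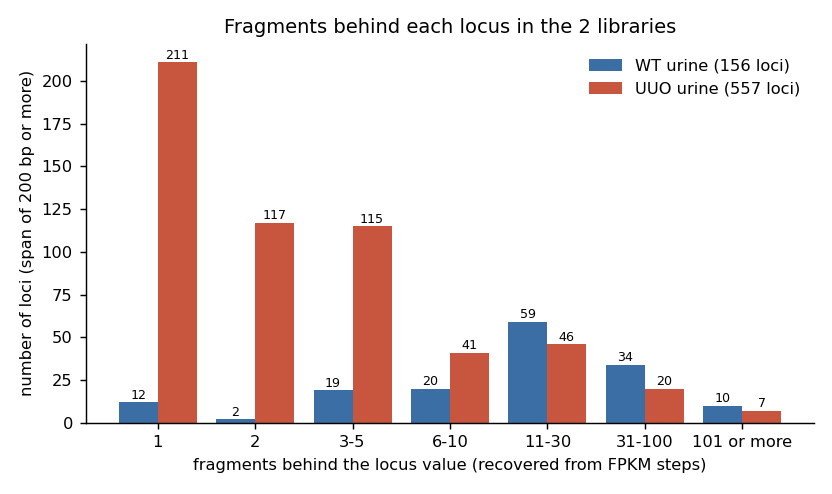
Number of members of 200 bp or more (y axis) by the fragments behind their value (x axis), for WT and UUO urine. UUO urine has 211 loci of 1 fragment and 117 of 2, while the most frequent class in WT urine is 11 to 30 fragments, with 59 loci.

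The order of the libraries turned with the number of fragments asked for. At 3 or more fragments there were 142 members in WT and 229 in UUO. At 10 or more there were 109 in WT and 75 in UUO, and at 30 or more 47 and 27. Both libraries had 10 or more fragments at 44 members. Of these, 7 were at least 2-fold higher in UUO by FPKM, 10 lower and 27 neither. Of 140 members with 10 or more fragments in either library, 37 were higher and 73 lower, and the median difference was -1.10. The count of loci higher in UUO urine thus rested on loci of few fragments. No share over all loci stands beside these counts, since fragments were recovered for members only. Of all loci detected in both libraries, 38.1% were lower and 9% higher in UUO by FPKM. Intervals of fragment counts below are exact Poisson intervals, and those of a fold are exact intervals for the split of the fragments, both of 95%. They cover counting error only, since reads copied by PCR are not independent molecules.

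**Figure D4:**
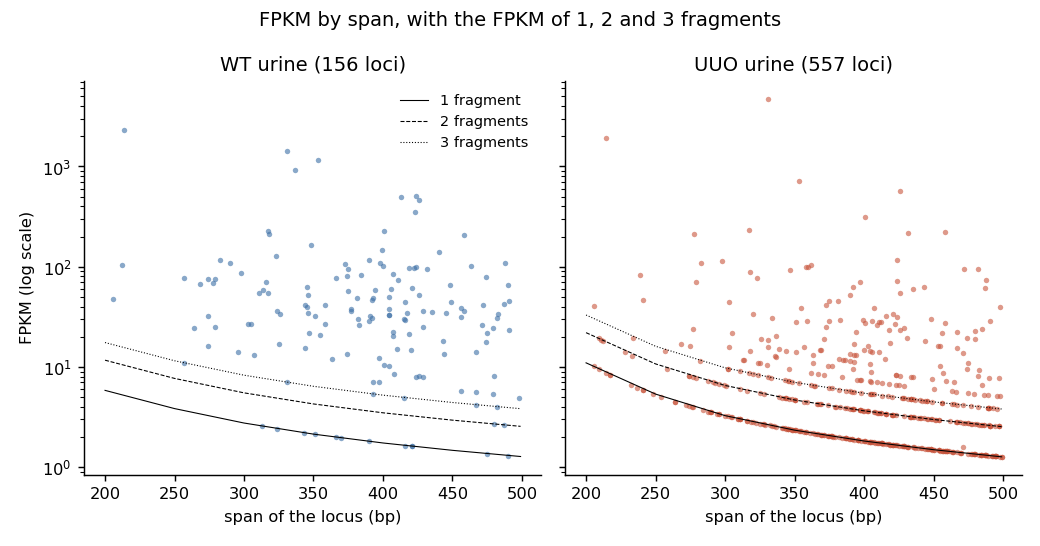
FPKM (y axis, log scale) against span (x axis, bp) for members of 200 bp or more above 0 in WT (left, 156 loci) and UUO urine (right, 557 loci), with lines for the FPKM that 1, 2 and 3 fragments give. UUO values lie along the 3 lines, and most WT values lie above them.

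A few loci held most of the members' FPKM. The members summed to 15401 in WT (2.99% of the sum over all loci but those set aside) and 16934 in UUO (3.66%), while making up 7.04% of loci. The highest member held 15.0% of the members' sum in WT and 27.9% in UUO, and the 10 highest held 55.5% and 64.7%. The lists of 10 shared 6 loci (60% of each), and the lists of 50 shared 21.

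The highest member in UUO urine was NONRATG029694 (chr8:85045281-85045612, 331 bp). Its FPKM was 1433 in WT (613 fragments, interval 565 to 664) and 4718 in UUO (1797 fragments, 1715 to 1882). The value in UUO was 3.29-fold that in WT (3.002 to 3.61). The log2 difference turned to -1.53 with a common 75th percentile and to -0.16 with its transcript entry alone. It lay 7597 bp from Cilk1, a kinase gene of cilia, with Gsta4, a glutathione transferase gene, on the other side. As background, the gene of 7SK, the RNA that holds the transcription elongation factor P-TEFb inactive, is known to lie beside these genes in mammals. No 7SK sequence was compared here. The locus of Cilk1 itself went the other way, with 26.9 FPKM in WT against 6.51 in UUO.

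The highest member in WT urine was NONRATG017858 (chr20:47076913-47077127, 214 bp), 310 bp from the locus of Gtf3c6 and Rpf2. RefSeq lists a snoRNA gene of exactly 214 bases in the same interval. Its FPKM was 2313 in WT and 1919 in UUO, 1.21-fold higher in WT (1.03 to 1.43). The fragments differed more, with 449 in WT (408 to 493) and 216 in UUO (188 to 247). Divided by the fragment total of its library, the value was 2.38-fold higher in WT. At a span near the mean fragment length, FPKM and fragments thus gave different sizes. The log2 difference turned to 0.36 with UUO values rescaled to equal sums over all entries, those set aside included. With the median ratio it turned to 0.58, and both values mean higher in UUO. Gtf3c6 and Rpf2, summed at their locus, had 26.1 FPKM in WT and 11.4 in UUO.

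NONRATG008401 (chr12:48660375-48660519, 144 bp) was 4883 bp from Sirt4, a mitochondrial sirtuin gene. Its FPKM was 671 in WT and 1594 in UUO. RefSeq lists a pair of snRNA genes of 141 bases in that interval. NONRATG008400, the neighbouring member of 141 bp at chr12:48659564-48659705, was listed at 0 in both libraries. Fragments were not recovered at these spans, so the sizes have no interval.

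NONRATG026856 (chr7:115857856-115858209, 353 bp) lay 3330 bp from Them6. Its FPKM was 1160 in WT and 711 in UUO, on 550 and 309 fragments, 1.63-fold higher in WT (1.42 to 1.88), and the log2 difference turned to 0.14 with median ratios. NONRATG017255 (chr2:230813811-230814237, 426 bp) lay 2147 bp from Tmem167b. RefSeq lists Scarna2, a small Cajal body RNA gene of 416 bases, in the same interval. Its FPKM was 462 in WT and 569 in UUO, on 290 and 347 fragments, 1.23-fold higher in UUO (1.05 to 1.44). Tmem167b had 3.98 in WT and 2.13 in UUO.

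A further group of loci among the 10 highest of a library had FPKM of about the same order in both. NONRATG004953 (chr10:81285817-81286134) had 228 in WT and 231 in UUO, a ratio of 1.01 whose interval (0.74 to 1.38) included 1. NONRATG030854 (chr9:49748008-49748466) had 205 and 221, a ratio of 1.07 (0.85 to 1.36). NONRATG001360 (chr1:205927056-205927457) had 226 and 315, a ratio of 1.39 (1.10 to 1.76). With a common 75th percentile, and with transcript entries alone, the sign at NONRATG017255 and NONRATG001360 turned (-2.93 and -2.74, -0.18 and -0.18). NONRATG013383 (chr17:45677519-45677951), 5320 bp from the histone gene Hist1h2ail1, had 95.2 in WT and 214 in UUO, 2.25-fold higher in UUO (1.65 to 3.10).

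Of the 5 loci lowest in UUO relative to WT among those detected in both, 3 were among the 10 highest of WT urine. NONRATG009952 (chr14:83907028-83907441, 413 bp) lay 722 bp from Depdc5, a gene of the GATOR1 complex that restrains mTORC1. Its FPKM was 501 in WT on 301 fragments and 5.17 in UUO on 3 fragments, 96.8-fold higher in WT (32.8 to 472). Depdc5 itself went the other way, with 2.14 in WT and 5.70 in UUO. NONRATG005522 (chr10:15262034-15262371, 337 bp) lay 3175 bp from Decr2, a peroxisomal enzyme gene of fatty acid oxidation. It had 924 in WT on 407 fragments and 12.7 in UUO on 5, 72.9-fold higher in WT (31.1 to 226). The locus of Decr2 had 89.3 in WT and 16.5 in UUO. NONRATG014993 (chr19:36795971-36796394, 423 bp) lay 61 bp from Lyl1, a transcription factor gene of blood cell development, and had 351 in WT on 218 fragments and 8.29 in UUO on 5. That was 42.3-fold higher in WT (17.9 to 132), while the locus of Lyl1 had 93.1 and 41.6. NONRATG011536 (chr15:86015424-86015790) had 77.8 and 2.15, on 39 fragments and 1. NONRATG009267 (chr13:78498379-78498669) had 108 and 3.53, on 37 fragments and 1. With 1 fragment in UUO their ratios, 36.2 and 30.7, had lower limits of 6.13 and 5.15 and upper limits of 1466 and 1237.

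The loci highest in UUO relative to WT among those detected in both were of lower level. NONRATG006611 (chr10:112140920-112141402) had 4.01 FPKM in WT on 3 fragments and 95.1 in UUO on 71, a ratio of 23.7 (7.78 to 117). NONRATG031925 (chrX:43571580-43572001) had 1.62 on 1 fragment and 33.4 on 20, a ratio of 20.7 (3.30 to 855). NONRATG030276 (chr9:54777565-54778063) had 4.90 on 4 fragments and 39.3 on 31, a ratio of 8.01 (2.72 to 30.03). NONRATG025105 (chr6:69346643-69347123) had 2.69 on 2 fragments and 18.9 on 14, a ratio of 7.01 (1.61 to 63.5). NONRATG005046 (chr10:86545534-86545931), 3369 bp from Casc3, a core gene of the exon junction complex, had 12.3 on 7 fragments and 70.4 on 38. Its ratio was 5.70 (2.51 to 15.1), and the locus of Casc3 had 29.0 in WT and 7.36 in UUO. Of the 5 WT values, 4 rested on fewer than 5 fragments.

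Some loci were listed at 0 in 1 library and well above it in the other. At 0 in WT, the highest UUO values were 461 at NONRATG031852 (chrX:20212789-20212927, 138 bp), 154 at NONRATG016551 (chr2:58235220-58235385, 165 bp) and 108 at NONRATG005567 (chr10:19592260-19592421, 161 bp). These are too short for fragments to be recovered. NONRATG021880 (chr4:7242210-7242572), 1564 bp from Agap3, followed with 103 on 47 fragments, and NONRATG011588 (chr15:106880787-106881147) with 99.5 on 45. At 0 in UUO, the highest WT values belonged to a pair of loci 528 bp apart on chromosome 10. NONRATG006380 (chr10:91433607-91433955) had 166 on 77 fragments and NONRATG006379 (chr10:91432639-91433079) had 141 on 93. NONRATG023142 (chr5:81059764-81060186) had 96.8 on 60 fragments, NONRATG010276 (chr14:33454596-33454941) had 39.4 on 18 and NONRATG007298 (chr11:65545199-65545525) had 33.5 on 14. In all, 12 members had 10 or more fragments in WT and were listed at 0 in UUO, and 18 the reverse. The same count over all loci is not given, since fragments were recovered for members only. A value listed at 0 can be a failed estimate. Of 73 cytosolic ribosomal protein genes, which every cell uses, 18 had a gene entry listed at 0 in both libraries. Other entries at those positions were not added, unlike in the members' sums. The count therefore does not show how often a locus sum of 0 is a failed estimate. No fold is given for loci listed at 0 in 1 library.

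**Figure D5:**
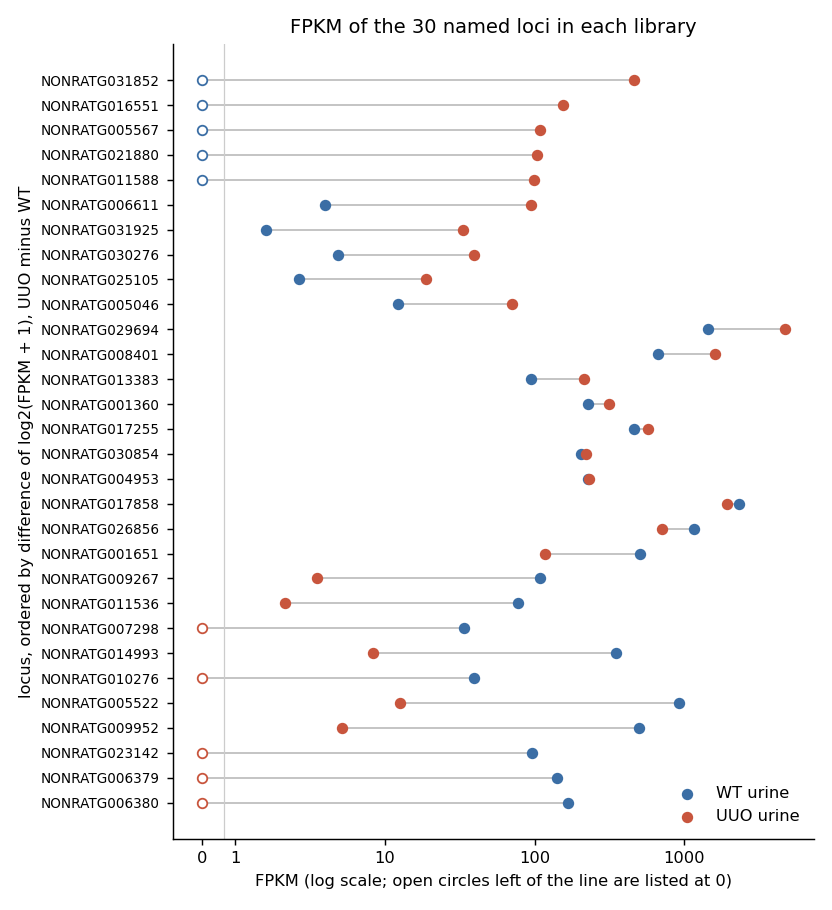
FPKM (x axis, log scale) of the 30 named loci in WT and UUO urine, ordered by the difference of log2(FPKM + 1), with open circles for values listed at 0. Between the 5 loci listed at 0 in WT (top) and the loci lowest in UUO (bottom) stand the highest loci, such as NONRATG029694 at 1433 and 4718 and NONRATG017858 at 2313 and 1919.

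The reads of a locus were divided between its entries in different ways in the libraries. Of the members 2266 had 2 entries, a gene and a transcript at the same position, 9 had 3 and 7 had 4. The gene entry held a median of 96.1% of the locus FPKM over 156 detected loci of 2 entries in WT (quartiles 90.6 and 98.5) and 50.5% over 559 loci in UUO (50.4 and 88.4). At 18 loci the gene and the transcript entry differed by at least 2-fold in opposite directions. At NONRATG001651 (chr1:231953970-231954394), 967 bp from Ttc9c, the gene entry had 505 in WT and 0.872 in UUO, while its transcript entry had 1.32 and 116. The locus as a whole had 506 and 117, on 316 and 71 fragments, 4.34-fold higher in WT (3.33 to 5.67). At NONRATG022133 (chr4:66704278-66704561) the gene entry had 115 in WT and 0.0539 in UUO and the transcript entry 0.702 and 108, and the locus as a whole had 116 and 108. A value of 1 entry alone could therefore show a large difference where the locus showed little.

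Members within 1 kb of a gene were detected more often than those farther away. The rule asks only that the listed position be shared with no gene. None overlapped a gene locus, while 16 members of at most 3 bp, all listed at 0, touched one. Of 2275 members on placed chromosomes, 813 (35.7%) lay within 10 kb of a gene locus. Among members of 200 bp or more, 11.8% were detected in WT and 44.1% in UUO of 170 within 1 kb of a gene, and 5.43% and 21.5% of 534 beyond 100 kb. Between 1 and 10 kb the shares were 7.45% and 32.7% of 376 members, and between 10 and 100 kb 10.2% and 31.4% of 773, so that in WT they did not fall steadily with distance. The median distance was 21.1 kb for detected members and 39.6 kb for the others. Of 28 members within 1 kb of a newly assembled locus, 9 were detected in WT (32.1%) and 16 in UUO (57.1%). Between chromosomes the detected share ranged from 1.85% to 17.0% in WT and from 17.4% to 42.6% in UUO.

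The long intergenic noncoding loci, which meet the same rule but span 500 bp or more, are the loci most like the members. Of 9586 such loci, 1607 (16.8%) were detected in WT and 3551 (37.0%) in UUO, with median FPKM of 7.85 and 2.24. Of 3829 detected in either library, 2178 (56.9%) were higher and 731 (19.1%) lower in UUO by at least 2-fold, against 77.1% and 15.1% of members. Of 1329 detected in both, 74 (5.57%) were higher and 541 (40.7%) lower, against 18.4% and 49.6%. The same limit of FPKM was asked of both, while 1 fragment is worth more FPKM on a shorter locus. The shares are given side by side, and their difference was not tested.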

How the data were processed

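RNA of 2 urine libraries, 1 WT and 1 UUO, was compared in 1 deposited table. The authors removed ribosomal RNA, made strand-specific libraries, aligned read pairs with TopHat2 2.0.9 and Bowtie2 2.0.6 to rn5 and assembled and compared transcripts with Cufflinks and Cuffdiff 2.1.1, per the submitters' processing notes and the study's methods. Library preparation is described for kidney RNA. For urine RNA the methods name a column kit and the labels Trizol. The authors deposited 1 FPKM value per entry and library, and which total scaled it is not given in the sources used here. The table's fold changes, test statistics, p-values, q-values and status are the authors' own comparison and were not used. All value columns were mapped to a library.

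FPKM was summed over the entries of a locus (Python 3.11.15, pandas 2.3.3, numpy 2.4.6). Loci holding any of 3 entries set aside were left out whole, 2 of which would otherwise have met the rule. Differences used a pseudocount of 1, and the limits were FPKM of 1 and 2-fold. Fragments were recovered by fitting a fragment-length distribution, cut at the span, and a total per library (scipy 1.17.1), for spans from 200 bp. The steps were also run on simulated data, which cannot show how the deposited values were scaled. RefSeq (GRCr8) gave 16329 names for 16484 number-only gene IDs, small RNAs between the same neighbours (3 neighbours tried on each side) and sequences. No coordinate of GRCr8 was used. Of 2016 members searched, 1944 were placed between neighbours.

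Named loci were the 10 highest in each library, the 5 greatest and 5 smallest differences among loci detected in both, and the 5 highest in each library among loci listed at 0 in the other. Other named loci, and the microRNAs shown, were chosen after their values were seen, as was the class limit at the shortest span above 0. Genes beside a named locus are given where they lie within 10 kb. Their own FPKM is given at some of these loci only, and whether members go with their neighbours was not tested. The members and lists were chosen with earlier results of these data known. Alternatives changed the pseudocount, the FPKM limit, the fold, the scaling, the entries, the span and the distance to genes.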

Additional observations from a re-analysis of the deposited data

How the results depend on the processing

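Of 367 values recomputed, 285 kept their direction and stayed within the limits (1.5 times for counts and shares, the same side of 2-fold for differences). With a pseudocount of 10, 70 loci were higher in UUO, 73 were lower and the median difference was 0.34. With FPKM of at least 5, 237 loci were detected in UUO and 150 were higher. At 4-fold, 236 were higher. With a common 75th percentile, 145 loci were detected in UUO and 87 in both, 59 were higher, 148 lower, and the median difference turned to -2.72. With it the differences of NONRATG013383 (-2.03), NONRATG008401 (-2.00), NONRATG029694 (-1.53), NONRATG005046 (-0.67), NONRATG025105 (-0.31), NONRATG030276 (-0.20), NONRATG004953 (-3.18), NONRATG030854 (-3.09), NONRATG017255 (-2.93) and NONRATG001360 (-2.74) also changed sign. With NONRATT entries alone, 324 loci were detected in UUO and 74 in both, 254 were higher and 15 lower, and the shares of summed FPKM were 0.0660% in WT and 0.504% in UUO. There NONRATG009952 (0.48), NONRATG009267 (0.54), NONRATG001651 (5.65), NONRATG013383 (-0.29), NONRATG029694 (-0.16), NONRATG005046 (-0.66), NONRATG030276 (-0.57), NONRATG006611 (-0.30), NONRATG004953 (-0.10), NONRATG030854 (-0.11), NONRATG017255 (-0.18) and NONRATG001360 (-0.18) changed sign. The cause was not tested.

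Fewer loci entered by construction for spans under 300 bp, where 20 were detected in WT, 61 in UUO and 17 in both, 47 were higher and 12 lower, with shares of 0.823% and 1.16%. At least 10 kb from a gene, 365 were detected in UUO and 286 were higher, with shares of 1.05% and 1.18%. Chosen after seeing the data, fragments divided by the library's total in place of FPKM gave 138 loci higher and a median of 0.50. At 3 or more fragments 229 were detected in UUO and 148 were higher. At 10 or more, 75 were detected in UUO and 44 in both, 37 were higher and the median turned to -1.10. Of 266 values recomputed for the 30 named loci, 219 stayed within the limits and 27, at 16 loci, changed sign. Besides those above, these were NONRATG017858 (0.36 with equal sums, 0.58 with median ratios), NONRATG026856 (0.14 with median ratios), and NONRATG004953 (-0.37) and NONRATG030854 (-0.11) with the fragments in place of FPKM. No paired analysis was possible because WT and UUO have a single library apiece, and for the same reason no library could be left out. Of UUO values at spans of 200 bp or more, 37.9% rest on 1 fragment.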

Other observations

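Neighbouring members did not always go the same way. Of 155 pairs of members within 10 kb of each other, 36 had both loci detected in at least 1 library. NONRATG018409 (chr3:12387112-12387470) had 26.8 FPKM in WT and was listed at 0 in UUO, and NONRATG018410 (chr3:12387512-12387880), 42 bp away, was listed at 0 in WT and had 14.9 in UUO. NONRATG005520 and NONRATG005521, 239 bp apart on chromosome 10, had 107 and 109 in WT but 41.5 and 5.52 in UUO. On chromosome X, NONRATG032171, NONRATG032172 and NONRATG032173 lay within 3650 bp of the next, with 52.2, 48.8 and 44.5 in WT and 7.20, 45.9 and 32.4 in UUO.

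Some members had values equal to 4 significant digits. There were 104 such members in 47 sets, 44 of them sets of 1 common span. The sets had at most 3 fragments in UUO urine, and 0 sets were above 0 in WT.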
